A study of Equus caballus with 45 samples.

Results

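The genes described here are 10 members of the NF-κB system: the 5 subunit genes NFKB1, NFKB2, REL, RELA and RELB, and 5 genes grouped as feedback inhibitors, NFKBIA, NFKBIE, NFKBIZ, TNFAIP3 and BIRC3. They were taken by gene symbol from the count tables of the series, in which each has 1 row among 20881 protein coding genes, and all 10 passed the minimum of 10 counts in every fit. The name inhibitor is a group label here and does not state how NFKBIZ or BIRC3 acts. The libraries came from equine cells. Bone marrow mesenchymal stromal cells (MSC) of 3 donors, PC, 99 and 92, gave 12 libraries, 1 per donor for untreated cells, the TLR3 agonist polyinosinic:polycytidylic acid (poly I:C), the STING agonist 2′3′-cGAMP and a treatment labelled CpG. Synoviocytes, chondrocytes and monocyte-derived macrophages gave 11 libraries each. In each cell type, 9 libraries received IL-1β and TNF-α, and conditioned medium (CM) from MSC of donors PC, ORC and AG1. These MSC were resting or had been activated through TLR3 or through STING. Of the other libraries, 1 received the cytokines only and 1 received no addition. Libraries labelled CTRL or untreated with a donor were taken as resting CM, and whether donors ORC and AG1 are the MSC donors 99 and 92 under other names is not given in the sources used here. The libraries without medium also carry a donor name in their titles, ORC in all but the synoviocyte library with cytokines only, which carries PC.

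MSC were exposed to an agonist for 2 h, washed and cultured for another 24 h before medium and RNA were taken. By the study's methods, joint cells were kept with cytokines and CM for 24 h, washed, and cultured for another 24 h. Its abstract instead gives cytokines for 2 h, a wash, CM for 24 h, a further wash and 24 h of culture. The joint cell values therefore describe RNA taken 24 h or more after the cytokines were removed. The agonist dose is written as 10 µg/mL in the design text and as 10 ng/mL in the sample protocols, and the cytokine dose in the protocols as 20 ng/mL for synoviocytes and 10 ng/mL for macrophages, where the study's methods give 20 ng/mL. Each joint cell type came from 1 horse. The 3 CM libraries of a group are therefore 1 horse's cells given media of 3 MSC donors, p-values measure the spread between those libraries, and cell type, horse and culture medium cannot be told apart.

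NF-κB proteins are dimers that wait in the cytoplasm bound to inhibitors of the IκB family. IL-1β, TNF-α and double-stranded RNA activate a kinase complex that destroys the inhibitor and lets the dimer enter the nucleus, where it switches on cytokine, chemokine and protease genes. Among its targets are its own inhibitors and several of its subunits, so the pathway is a loop that limits itself, and in joint tissue it is a main route from inflammatory cytokines to matrix breakdown.

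Libraries held 23525704 to 54103873 counts, so that 3 counts, used as the floor, correspond to 0.0554 to 0.128 counts per 1000000 counts (CPM). The lowest member level in any library was that of TNFAIP3, at 0.973 CPM. In macrophages the summed level of 12 macrophage markers was 14590 to 18440 CPM, against 11.2 to 40.8 CPM in chondrocytes and synoviocytes together. The chondrocyte label had weaker support, since COL2A1, the defining collagen of cartilage, reached at most 0.368 CPM there and COL9A1 stayed at or under the floor, while ACAN was at 6.12 to 101 CPM. The MSC libraries reached 333 CPM for the macrophage markers, in donor 99 with the STING agonist, of which CD68 made up to 324 CPM. Of 2 blood cell markers that MSC should lack, PTPRC reached at most 0.239 CPM and CD34 at most 1.505 CPM, in donor 92. The macrophage libraries held 62.95 to 137.4 CPM of 3 T and B cell markers, mainly CD3E, at 60.4 to 134 CPM, which was at or under the floor in the other cells. Libraries of the 3 chondrocyte cultures given ORC medium, and of MSC donor 92, stood apart from the others. In bulk RNA, fewer cells of a type and less RNA per cell cannot be told apart.

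Which subunits and inhibitors each joint cell type carries was read from the 3 libraries per type given cytokines and resting MSC-CM. Macrophages differed from both stromal types for 9 of the 10 genes. Against synoviocytes 8 were higher and 1, NFKBIZ, was lower, where 70.2% of 16584 genes passed an adjusted p of 0.05 in either direction (35.8% higher and 34.4% lower). Against chondrocytes the split was the same, with 69.6% of all genes passing (35.8% higher and 33.9% lower). RELA was the member that passed in neither.

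**Figure D1:**
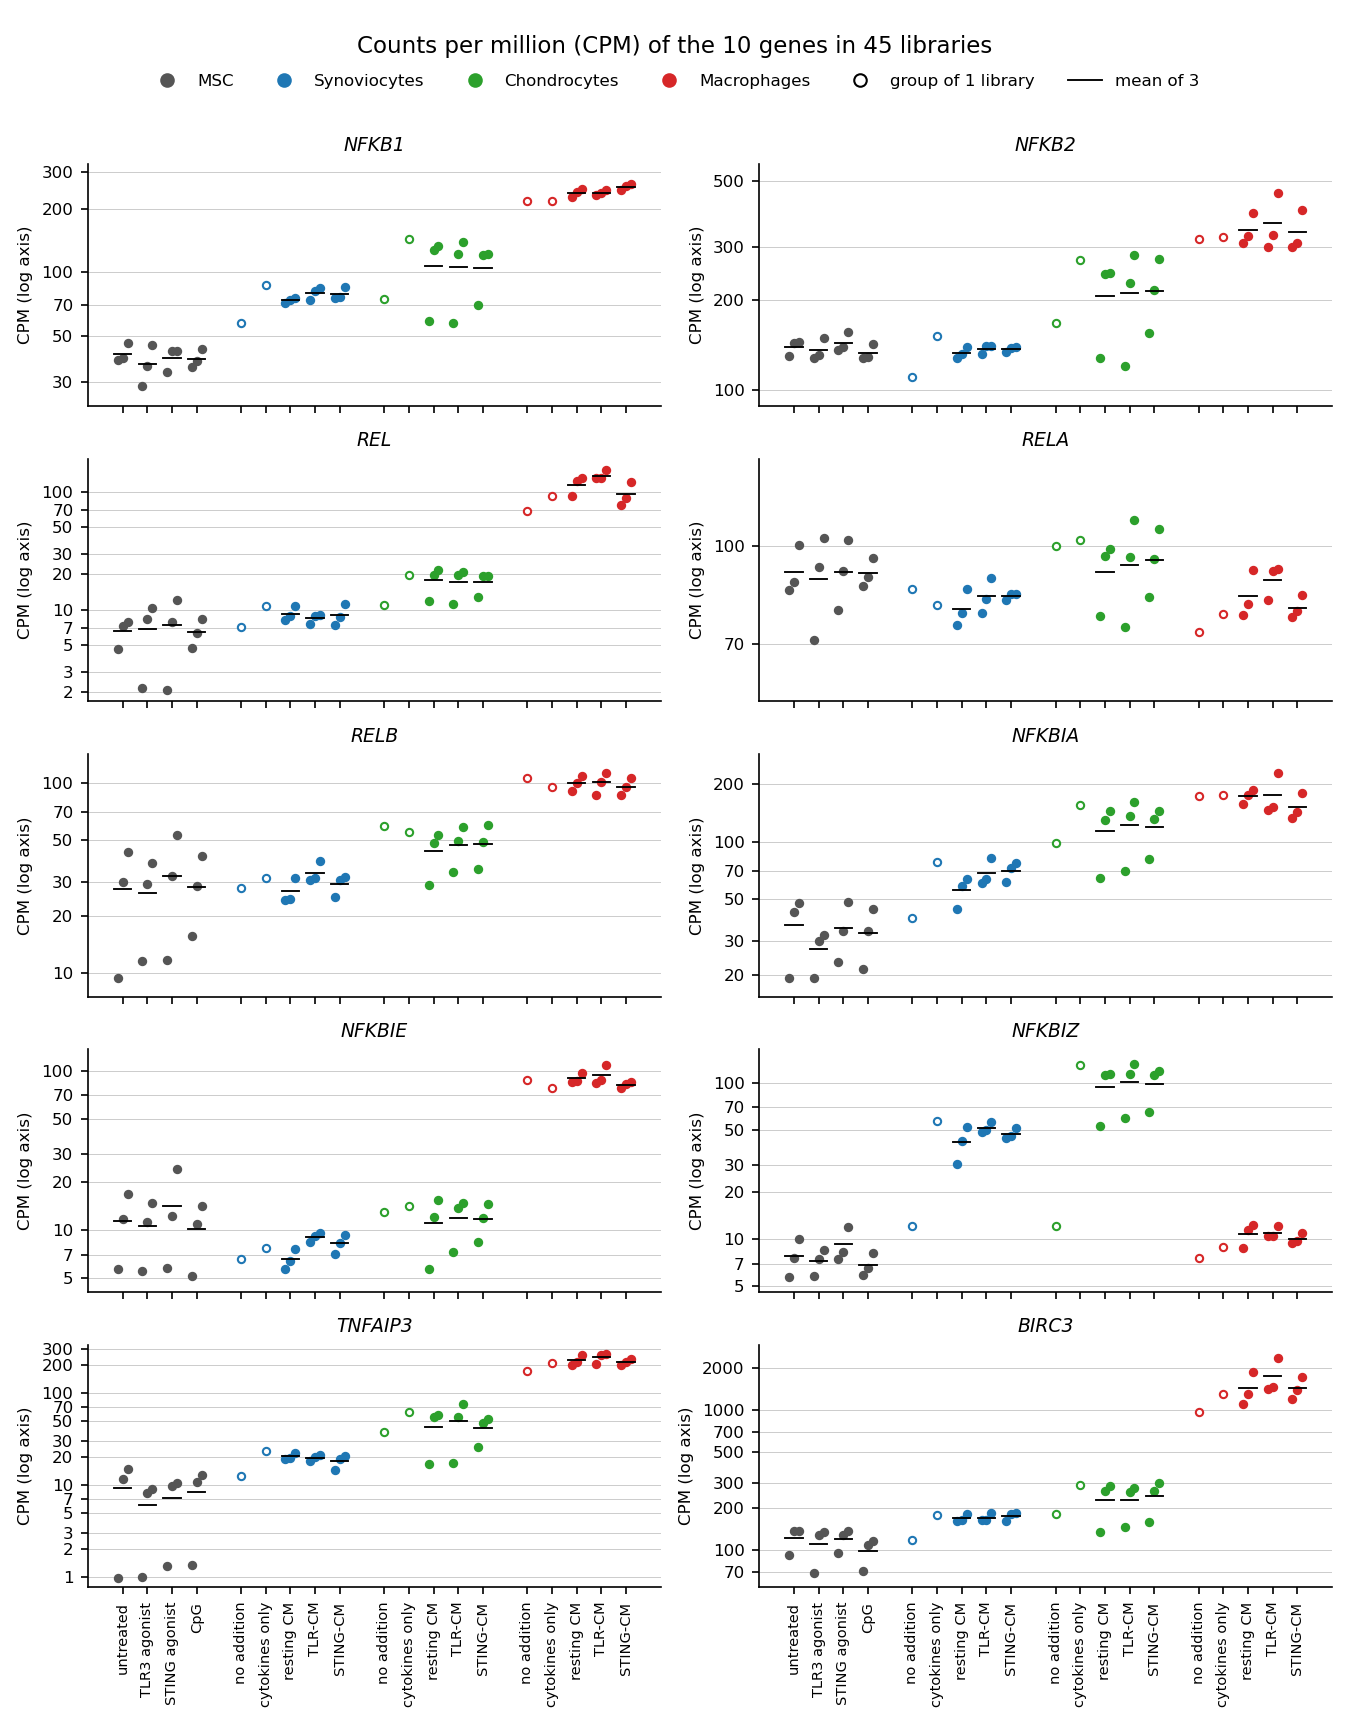
Level of each of the 10 genes in all 45 libraries, in CPM on a logarithmic axis, by cell type (colour) and condition; filled points are libraries of groups of 3, lines their means, and open points groups of 1 library. REL, NFKBIE, TNFAIP3 and BIRC3 are highest in macrophages (BIRC3 at 1431 CPM with resting CM), NFKBIZ is highest in stromal cells given cytokines, and the low chondrocyte point of each triplet is the culture given ORC medium.

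REL, which encodes the c-Rel subunit known mainly from blood cells, had the widest spread of the subunits. It was at 8.24, 8.81 and 10.8 CPM in synoviocytes, at 11.95, 19.7 and 21.9 CPM in chondrocytes and at 91.9, 122 and 131 CPM in macrophages. The 3 sets did not overlap, and macrophages exceeded synoviocytes by 3.61 ± 0.24 on the log2 scale (SE, n = 3; 12.2-fold; edgeR quasi-likelihood adjusted p = 5.1e-12). Macrophages exceeded chondrocytes by 2.67 ± 0.23 (adjusted p = 4.2e-10, edgeR) and chondrocytes exceeded synoviocytes by 0.94 ± 0.23 (adjusted p = 0.0046, edgeR).

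RELA encodes the transactivating subunit of the canonical dimer. It was at 74.9, 78.4 and 85.4 CPM in synoviocytes, at 77.4, 96.3 and 98.8 CPM in chondrocytes and at 77.8, 80.8 and 91.6 CPM in macrophages. The synoviocyte and macrophage sets overlapped. The chondrocyte set overlapped them only through its lowest library, at 77.4 CPM, which was the one given ORC medium. The macrophage minus synoviocyte difference was 0.04 with a 95% interval of -0.19 to 0.27 on the log2 scale, and the macrophage minus chondrocyte difference was -0.14, with an interval of -0.36 to 0.09. The macrophage minus chondrocyte difference ran from -0.23 to -0.11 over 7 other settings and was called in 1 of them.

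RELB, partner of the processed NFKB2 product in the non-canonical pathway, was at 24.2, 24.6 and 31.7 CPM in synoviocytes, at 29.0, 48.2 and 53.4 CPM in chondrocytes and at 90.6, 99.6 and 109.2 CPM in macrophages. Macrophages lay above all libraries of the stromal types, by 1.86 ± 0.20 (adjusted p = 2.2e-08, edgeR) against synoviocytes and by 1.18 ± 0.20 (adjusted p = 1.4e-05, edgeR) against chondrocytes.

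NFKB1, which encodes the precursor of the DNA-binding subunit of the canonical dimer, was at 71.8, 73.6 and 75.8 CPM in synoviocytes, at 58.9, 128 and 134 CPM in chondrocytes and at 229, 241 and 249 CPM in macrophages. The macrophage libraries lay above all others, and the low chondrocyte library was the one given ORC medium. NFKB1 was higher in macrophages by 1.67 ± 0.26 and 1.15 ± 0.25 in the same order. NFKB2, whose processed product pairs with RELB, was at 128.3, 132 and 139.5 CPM in synoviocytes, at 127.8, 245 and 247 CPM in chondrocytes and at 311, 327 and 389 CPM in macrophages. It was higher there by 1.33 ± 0.24 and 0.71 ± 0.24. Both genes passed the test in each comparison, with adjusted p of at most 0.01 in edgeR, although NFKB2 against chondrocytes lost its call, at an adjusted p of 0.076, when the chondrocyte library given ORC medium was left out.

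Among the genes grouped as inhibitors, NFKBIE, which encodes the IκBε protein, differed most. It was at 5.69, 6.40 and 7.58 CPM in synoviocytes, at 5.72, 12.1 and 15.4 CPM in chondrocytes and at 84.7, 86.9 and 97.2 CPM in macrophages. Every macrophage library was above every stromal library, with a difference of 3.74 ± 0.27 against synoviocytes (13.3-fold; adjusted p = 1.6e-11, edgeR) and 2.99 ± 0.26 against chondrocytes (7.95-fold; adjusted p = 3.6e-10, edgeR). TNFAIP3, which encodes A20, the ubiquitin-editing enzyme that shuts off signalling upstream of the kinase complex, was at 19.3, 19.7 and 22.2 CPM in synoviocytes, 16.9, 54.4 and 57.9 CPM in chondrocytes and 199.8, 214 and 261 CPM in macrophages. It was higher in macrophages by 3.44 ± 0.40 and 2.37 ± 0.38.

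BIRC3 encodes cIAP2, a ubiquitin ligase of the TNF receptor complex, and its reads may be shared in part with a similar paralogue. It was at 161.4, 163 and 182 CPM in synoviocytes, at 135, 266 and 285 CPM in chondrocytes and at 1099, 1310 and 1882 CPM in macrophages. The macrophage excess was 3.05 ± 0.28 (8.29-fold) over synoviocytes and 2.63 ± 0.28 (6.18-fold) over chondrocytes.

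NFKBIA, the gene of the main cytoplasmic inhibitor IκBα, was at 44.5, 58.4 and 63.5 CPM in synoviocytes, at 64.9, 129.5 and 145.5 CPM in chondrocytes and at 158, 176 and 187 CPM in macrophages. Its macrophage excess over synoviocytes was 1.62 ± 0.27 (adjusted p = 1.6e-05, edgeR). That over chondrocytes, 0.60 ± 0.27, was at the threshold (adjusted p = 0.0499, edgeR) and lost its call, at adjusted p up to 0.27, without the resting-CM chondrocyte culture given ORC medium or any 1 of the 3 macrophage libraries.

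NFKBIZ ran the other way. It encodes IκBζ, an IκB protein that acts in the nucleus, together with the NFKB1 product, on genes such as IL6. It was at 8.79, 11.4 and 12.3 CPM in macrophages, at 30.5, 42.9 and 52.5 CPM in synoviocytes and at 53.3, 113.7 and 114.9 CPM in chondrocytes, so that no set overlapped another. Macrophages were below synoviocytes by a log2 difference of -1.99 ± 0.28 (adjusted p = 1.1e-06, edgeR) and below chondrocytes by -3.14 ± 0.29 (adjusted p = 1.3e-09, edgeR).

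Chondrocytes against synoviocytes gave 6 members higher and 0 lower, where 21.4% of 16584 genes passed in either direction (10.3% higher). Besides REL, these were RELB by 0.68 ± 0.20, NFKBIA by 1.01 ± 0.27, NFKBIE by 0.75 ± 0.26, NFKBIZ by 1.14 ± 0.27 and TNFAIP3 by 1.07 ± 0.38. NFKB1 at 0.52 ± 0.25, NFKB2 at 0.62 ± 0.24, RELA at 0.18 ± 0.11 and BIRC3 at 0.42 ± 0.26 did not pass. The count depended on single libraries: it was 2 without the synoviocyte library given ORC medium or the chondrocyte library given AG1 medium, 3 without the chondrocyte or the synoviocyte library given PC medium, and 8 without the chondrocyte library given ORC medium. REL and NFKBIZ passed in all of these. With all 3 chondrocyte cultures given ORC medium left out, a choice made after seeing the data, all 10 members passed, where 27.5% of all genes did.

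Other genes of the pathway were counted in the same comparisons. Of 7 kinase genes, 6 were higher in macrophages than in synoviocytes, with a median log2 difference of 1.90. They included IKBKB, the catalytic kinase that marks IκB for destruction, at 1.90 ± 0.10, and MAP3K14, the kinase NIK of the non-canonical pathway, at 2.93 ± 0.30, while CHUK, at -0.13 ± 0.09, did not pass. The same 6 were higher than in chondrocytes. Of 13 further inhibitors, 5 were higher and 4 lower in macrophages than in synoviocytes, with TNIP2 at 2.72 ± 0.13 and CYLD, which removes ubiquitin chains, at 1.74 ± 0.11 among the higher and RNF11 at -1.43 ± 0.11 among the lower. These shares of the list are near those over all genes given above (35.8% higher and 34.4% lower).

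Of 31 target genes, 15 were higher and 12 lower in macrophages than in synoviocytes. IL1B and TNF were among the higher, and CCL20, IL6 and MMP13 were among the lower. Between chondrocytes and synoviocytes, 14 target genes were higher and 4 lower in chondrocytes, with a median log2 difference of 1.42. Of 23 receptor and adaptor genes, 4 were higher and 3 lower in chondrocytes, and the counts were 16 and 4 in macrophages against synoviocytes. Over all genes, 10.3% were higher and 11.1% lower in chondrocytes than in synoviocytes. In macrophages against synoviocytes the shares were 35.8% and 34.4%.

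How the 10 genes responded to the cytokines themselves rests on 1 library with IL-1β plus TNF-α and 1 without addition per cell type, so that no test was possible and the intervals cover counting error only. NFKBIZ stood out in both stromal types. In chondrocytes it was at 130.2 CPM with the cytokines and 12.3 CPM without, a ratio of 10.6 (95% exact interval 9.47 to 11.9). In synoviocytes the levels were 56.9 and 12.2 CPM, a ratio of 4.67 (4.18 to 5.23). In macrophages they were 8.91 and 7.60 CPM, a ratio of 1.17 (0.963 to 1.43). NFKBIZ was the single member past 2-fold in synoviocytes, where 4.4% of 13255 genes were, and in chondrocytes, where 6.65% of 13154 genes were. No member passed 2-fold in macrophages, where 2.49% of 13094 genes did.

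**Figure D2:**
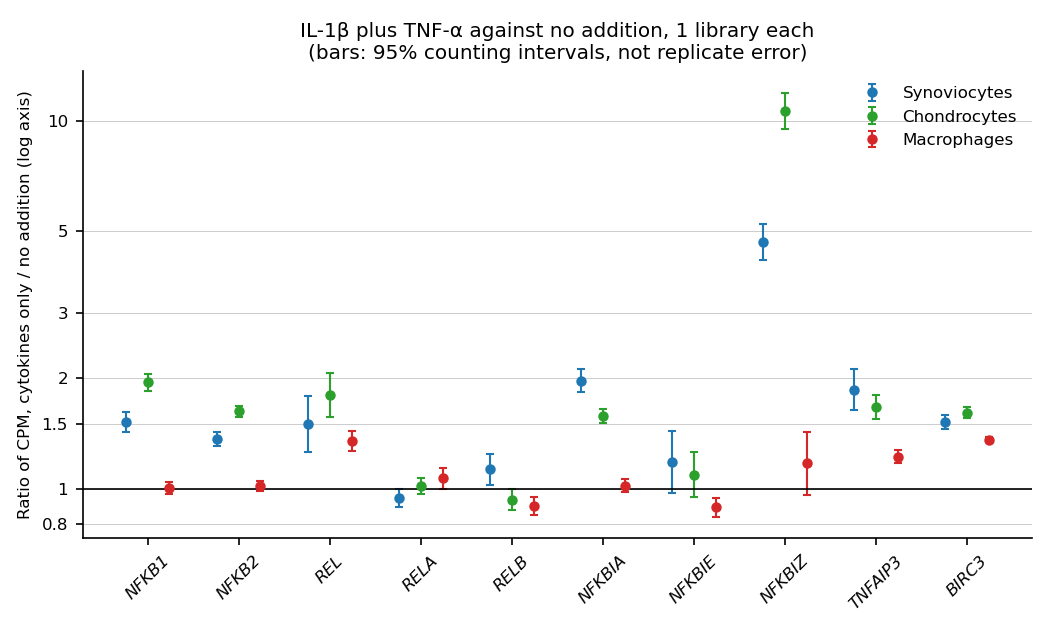
Ratio of CPM in the cytokine-only library to that in the library without addition, on a logarithmic axis, for each gene in 3 cell types; bars are 95% counting intervals of 1 library against 1, not replicate error. NFKBIZ lies at 10.6 in chondrocytes and 4.67 in synoviocytes, the other stromal ratios lie between 0.934 and 1.97, and the macrophage ratios lie between 0.891 and 1.36.

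In the stromal types the other genes grouped as inhibitors had smaller ratios than NFKBIZ. BIRC3 had 1.52 in synoviocytes, 1.61 in chondrocytes and 1.36 in macrophages. In synoviocytes NFKBIA was at 78.3 against 39.8 CPM (ratio 1.97, 1.83 to 2.11) and TNFAIP3 at 23.3 against 12.5 CPM (1.86, 1.64 to 2.11). In chondrocytes NFKBIA was at 155 against 98.3 CPM (1.58, 1.51 to 1.65) and TNFAIP3 at 62.7 against 37.6 CPM (1.67, 1.55 to 1.80). NFKBIE had ratios of 1.18 and 1.09 in the 2 types, with counting intervals that included 1.

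Of the subunits, NFKB1 had the largest stromal ratio, 1.95 (1.85 to 2.05) in chondrocytes, with 144.8 against 74.4 CPM, and 1.52 (1.43 to 1.62) in synoviocytes. NFKB2 had ratios of 1.63 in chondrocytes, 1.37 in synoviocytes and 1.02 in macrophages. REL had ratios of 1.80 in chondrocytes, 1.5 in synoviocytes and 1.35 in macrophages. RELA stayed near 1, at 0.944 in synoviocytes, 1.02 in chondrocytes and 1.07 in macrophages, and RELB lay at 1.13, 0.934 and 0.897 in the same order.

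The libraries with CM also received the cytokines, so that each cell type offers 10 libraries with cytokines against 1 without. The synoviocyte library without addition was below all 10 for 7 members (NFKB1, NFKB2, REL, NFKBIA, NFKBIZ, TNFAIP3 and BIRC3), as it was for 22.2% of all genes. In macrophages 6 members were below all 10 (NFKB1, REL, RELA, NFKBIZ, TNFAIP3 and BIRC3; 20.9% of all genes), although the macrophage ratios were small. In chondrocytes 2 were, REL and NFKBIZ, against 16% of all genes. For NFKBIZ in chondrocytes the 10 libraries spanned 53.3 to 132 CPM, all far above 12.3 CPM, whereas for REL the lowest of the 10, at 11.1 CPM, was next to the library without addition, at 11.04 CPM.

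Target genes of NF-κB separated the cell types in the same libraries. At least 2-fold higher with the cytokines were 18 of 28 in synoviocytes (median log2 ratio 2.38), 20 of 30 in chondrocytes (3.10) and 0 of 29 in macrophages (-0.01), while the medians over all genes were -0.02, -0.04 and 0.04. CXCL8, a neutrophil chemokine, was at 3307 against 3.16 CPM in chondrocytes and 23.1 against 0.568 CPM in synoviocytes, but at 3860 against 5134 CPM in macrophages. Of the inhibitors outside the 10, ZC3H12A, an RNase that degrades cytokine mRNA, had ratios of 8.93 in chondrocytes and 4.83 in synoviocytes, and TNIP3 had ratios of 5.50 and 4.98.

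Whether resting MSC-CM changed these levels was read from its 3 libraries against the library with cytokines only. No member differed by 2-fold on the mean with all 3 libraries on 1 side. In synoviocytes, all 3 were below for 6 members (24.2% of all genes), and in chondrocytes for 8 members (29.9%), which comprised all but REL and NFKBIE. In macrophages 0 members were below and 2, NFKB1 and NFKBIE, were above in all 3 libraries (24.9%). NFKBIA in synoviocytes was at 44.5 to 63.5 CPM with resting CM and 78.3 CPM with cytokines only, and NFKBIZ at 30.5 to 52.5 against 56.9 CPM. In chondrocytes NFKBIA was at 64.9 to 145.5 against 155 CPM and TNFAIP3 at 16.9 to 57.9 against 62.7 CPM, where the lowest value of each range was again the ORC medium. Without that library the same 8 members were below the cytokine-only library in both others (40% of all genes).

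The chondrocyte libraries fell apart by the donor of the medium. For all 10 members the 3 libraries with ORC medium were below all 6 with AG1 or PC medium, as were 22.1% of 14304 genes. TNFAIP3 was at 16.9 (resting), 17.2 (TLR) and 25.8 CPM (STING) with ORC medium and at 47.3 to 74.8 CPM with the other media. The ratio of the means was 0.351 for TNFAIP3, 0.484 for NFKB1, 0.505 for NFKBIZ, 0.509 for NFKBIA and 0.781 for RELA, the member that differed least.

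**Figure D3:**
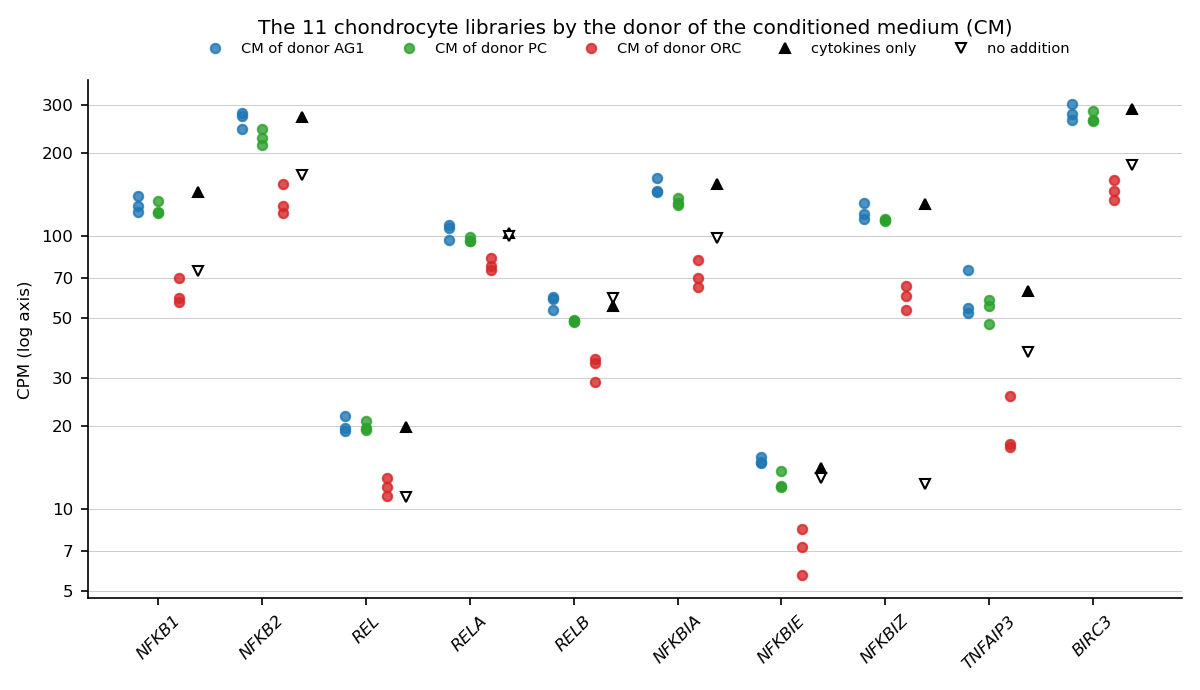
Level of each gene in the 11 chondrocyte libraries, in CPM on a logarithmic axis, coloured by the donor of the conditioned medium; each donor has 3 libraries (resting, TLR and STING), and triangles are single libraries. The 3 ORC points lie below the 6 points of the other donors for every gene, and for NFKBIZ alone they lie far above the library without addition (53.3 to 65.5 against 12.3 CPM).

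Set beside the library that had neither cytokines nor medium, the ORC cultures were lower for 8 members, all but REL and NFKBIZ, where 46.6% of all genes were. With AG1 medium 0 members were lower and 8 were higher in all 3 libraries (34.1% of all genes higher). With PC medium 2 were lower, RELA and RELB, and 7 were higher (32.6% higher). NFKB1, for example, was at 57.1 to 69.8 CPM with ORC medium, 74.4 CPM without addition and 121.4 to 139.6 CPM with the other media. NFKBIZ was the exception in size, at 53.3 to 65.5 CPM with ORC medium, between the 12.3 CPM without addition and the 113.5 to 132 CPM of the other media.

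Target genes were also low with ORC medium, with 24 of 30 below all 6 other libraries and a median log2 ratio of -1.62 (0.1 CPM added to both means), against -0.93 for the 10 members and -0.05 for all genes. CCL20 was at 27.2 to 55.4 against 470 to 1002 CPM, CXCL8 at 34.3 to 181 against 887 to 3376 CPM and VCAM1 at 18.8 to 30.1 against 234 to 281 CPM. The library without addition had 85.4, 3.16 and 215 CPM in the same order of genes. The ORC cultures were thus below it for CCL20 and VCAM1 and above it for CXCL8. In the same cultures the summed cartilage markers were at 487 to 622 CPM, against 159.6 to 245 CPM with the other media and 768 CPM without addition. Of these markers COL11A1 had the highest median over the chondrocyte libraries, 169 CPM, against 176 CPM in synoviocytes and 431 CPM in MSC. The stromal markers were at 92150 to 104300 CPM with ORC medium, against 59840 to 73140 CPM with the other media. The part of these markers in the result was not tested. Whether the difference comes with the donor's medium or with the way these 3 cultures were handled cannot be told apart.

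In the other cell types fewer members were on 1 side by donor. In synoviocytes, BIRC3 was the single member whose libraries of 1 donor were all on 1 side, lowest with ORC medium (161.4 to 163 CPM; 0.631% of all genes) and highest with PC medium (182.5 to 185 CPM; 0.946%). In macrophages, NFKB2, NFKBIA and BIRC3 were highest with AG1 medium (10.5% of all genes), with BIRC3 at 1731 to 2342 CPM against 1099 to 1469 CPM. RELB in macrophages was lowest with PC medium (85.9 to 90.6 against 95.4 to 113.3 CPM; 3.53%). In chondrocytes AG1 medium gave the highest levels of NFKB2, RELB, NFKBIA, NFKBIE and NFKBIZ (7.66% of all genes).

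Activation of the MSC was the study's main question, and for the 10 genes 0 changes passed an adjusted p of 0.05 in any of the 9 comparisons of media (edgeR quasi-likelihood and DESeq2 alike), where 0% of all genes passed in edgeR (80 to 1465 genes had an unadjusted p under 0.05) and 0 to 31 genes in DESeq2. Without adjustment, the edgeR p in synoviocytes was under 0.05 for 3 members with TLR-MSC-CM (10% of all genes) and 2 with STING-MSC-CM (7.6%). In macrophages 1 member had such a p between the activated media (6.6% of all genes). In the other 6 comparisons 0 members had (0.559% to 4.76% of all genes).

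**Figure D4:**
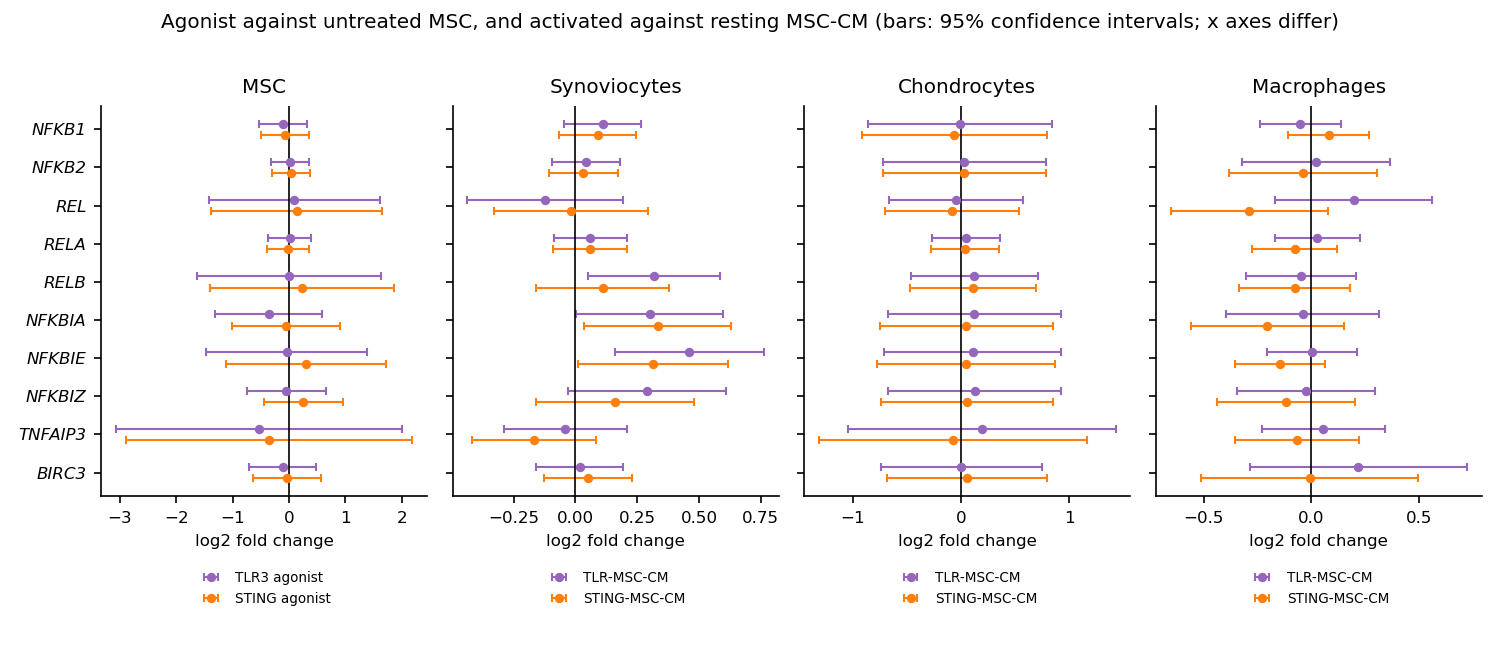
Log2 fold change of each gene with its 95% confidence interval, for TLR3 or STING agonist against untreated MSC and for TLR- or STING-MSC-CM against resting MSC-CM in 3 joint cell types (n = 3 per group; the x axes differ in range). Intervals are widest for TNFAIP3 in MSC, from -3.07 to 2.01, and NFKBIE with TLR-MSC-CM in synoviocytes lies at 0.46 (0.16 to 0.76).

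In synoviocytes the members with the smallest p were RELB and 2 inhibitors. NFKBIE was at 5.69, 6.40 and 7.58 CPM with resting medium, 8.44, 9.12 and 9.60 CPM with TLR-MSC-CM and 7.06, 8.32 and 9.33 CPM with STING-MSC-CM. The TLR libraries were above all resting libraries, and the difference was 0.46 ± 0.14 (log2, SE, n = 3; adjusted p = 0.49, edgeR). For STING-MSC-CM it was 0.31 ± 0.14 (adjusted p = 0.63, edgeR), with overlapping groups.

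NFKBIA was at 44.5, 58.4 and 63.5 CPM with resting medium, 60.8, 63.4 and 82.3 CPM with TLR-MSC-CM and 61.4, 72.9 and 77.4 CPM with STING-MSC-CM, so that the groups overlapped. The differences were 0.30 ± 0.14 and 0.33 ± 0.14, with the activated medium higher for 2 of the 3 donors in each. RELB with TLR-MSC-CM was at 30.7, 31.7 and 38.7 CPM against 24.2, 24.6 and 31.7 CPM, a difference of 0.32 ± 0.12 (adjusted p = 0.49, edgeR). Over the 10 members the differences ran from -0.12 to 0.46 with TLR-MSC-CM and from -0.17 to 0.33 with STING-MSC-CM.

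In the same synoviocyte comparisons 0 genes of the other lists passed. Those with an unadjusted p under 0.05 included, with TLR-MSC-CM, IRAK3, an inhibitor of IL-1 receptor signalling, at 0.43 ± 0.13, IL1R2, the decoy receptor of IL-1, at 3.63 ± 1.09, and the target genes MMP13, a collagenase, at 1.15 ± 0.32 and SOD2 at 0.75 ± 0.23. With STING-MSC-CM they included ICAM1 at -0.26 ± 0.09 and MMP13 at 0.85 ± 0.32. The medians of the target list were 0.21 and 0.07, against medians of all genes of 0.00 in both.

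In chondrocytes the differences of the 10 members ran from -0.04 to 0.19 with TLR-MSC-CM and from -0.08 to 0.11 with STING-MSC-CM. Their 95% intervals reached from -1.05 to 1.43 and from -1.31 to 1.17, and each group held 1 of the low ORC libraries. These were the intervals of TNFAIP3, the widest of the 10, while the SE of RELA, the smallest, was 0.14. Within a donor TNFAIP3 changed by -0.069 to 0.46 on the log2 scale with TLR-MSC-CM and by -0.29 to 0.61 with STING-MSC-CM, and 0 members passed with the donor as a block. The interferon-induced genes in the same cells had a median difference of 1.82 with STING-MSC-CM. Their unadjusted p was under 0.05 for 5 of 6, against 0 of 6 with TLR-MSC-CM. With ORC medium, STING included, none of the 6 reached the highest level seen with the other media. MX1, for example, was at 1.72 to 3.12 CPM with ORC medium and at 1.01 to 39.1 CPM with the others.

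In macrophages REL gave the smallest p of the 10. It was at 77.8, 88.2 and 119.9 CPM with STING-MSC-CM (ORC, AG1 and PC medium) and at 129.8, 152 and 130.2 CPM with TLR-MSC-CM in the same order of donors. The 2 groups did not overlap, and resting medium, at 91.9, 122 and 131 CPM, lay across both. STING minus TLR was -0.49 ± 0.17 on the log2 scale, lower for 3 of 3 donors (adjusted p = 0.73, edgeR). The summed T and B cell markers were also lower for 3 of 3 donors. They were at 62.95, 76.35 and 72.4 CPM with STING-MSC-CM and 72.6, 137.4 and 87.4 CPM with TLR-MSC-CM (ORC, AG1 and PC medium). With resting medium they were at 84.1, 84.3 and 69.6 CPM in the same order, where REL was at 91.9, 122 and 131 CPM. The part of these markers in the result was not tested. With the medium donor as a replicate block the difference was -0.51 and the adjusted p was 0.044, so that REL was the single member called, where 336 genes (2.23%) were. Libraries with medium of the same donor deviated together in macrophages, with a median correlation of 0.44 over same-donor pairs.

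RELA, RELB, NFKBIA, NFKBIE, TNFAIP3 and BIRC3 were likewise lower with STING- than with TLR-MSC-CM for 3 of 3 donors in macrophages, at differences that did not pass the test. With REL these are 7 of 10 members, where 23.8% of all genes were lower for 3 of 3 donors. BIRC3, for instance, was at 1190, 1731 and 1392 CPM with STING-MSC-CM and at 1469, 2342 and 1404 CPM with TLR-MSC-CM. Against resting medium, the differences ran from -0.05 to 0.22 with TLR-MSC-CM and from -0.29 to 0.08 with STING-MSC-CM.

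Whether the 3 joint cell types differed in their change was tested as an interaction over 27 libraries. For TLR-MSC-CM and for STING-MSC-CM, 0 members and 0 of 16584 genes passed (edgeR), with unadjusted p under 0.05 for 0 members and for 384 and 469 genes. DESeq2 called 0 members for either, and 9 genes for STING-MSC-CM. The smallest member p was 0.37, for NFKBIA with STING-MSC-CM, where macrophages differed from synoviocytes by -0.55 in the log2 change.

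In the MSC themselves neither agonist nor CpG moved a member past the threshold (0 of 10 in each of 4 comparisons by edgeR and by DESeq2, with unadjusted p under 0.05 for 0 of 10). No gene passed in edgeR (0% of 14872 genes; 171 with the TLR3 agonist and 312 with the STING agonist at an unadjusted p under 0.05), while DESeq2 called 48 genes with the TLR3 agonist and 93 with the STING agonist. Differences of members from untreated cells ran from -0.53 (TNFAIP3) to 0.09 with the TLR3 agonist, from -0.35 (TNFAIP3) to 0.30 (NFKBIE) with the STING agonist and from -0.31 (BIRC3) to 0.04 with CpG. The 6 interferon-induced genes, read as a check of the agonists, had a mean log2 change per donor of 4.90 to 6.24 with the STING agonist and of 4.59 and 6.53 with the TLR3 agonist in donors 99 and PC. In donor 92 the change with the TLR3 agonist was -0.37.

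With the TLR3 agonist NFKB1, NFKBIE and BIRC3 were lower in 3 of 3 donors, and with CpG so were these and NFKB2. With the STING agonist NFKBIE and RELB were higher in 3 of 3 donors. The share of all genes with 1 direction in 3 of 3 donors was not computed, so nothing about the members is concluded from these counts. In donor 92 the log2 changes of NFKB1, NFKBIE and BIRC3 with the TLR3 agonist were -0.085, -0.040 and -0.025. NFKBIE was at 24.2, 12.2 and 5.81 CPM with the STING agonist and 16.9, 11.7 and 5.67 CPM untreated in donors 99, PC and 92. RELB was at 53.2, 32.5 and 11.7 CPM against 43.1, 30.1 and 9.38 CPM. Both differences, 0.30 ± 0.62 and 0.24 ± 0.71 in the fit without donor pairing, were smaller than the spread between donors. Within a donor, the log2 change was 0.035 to 0.517 for NFKBIE and 0.111 to 0.314 for RELB. Neither gene passed with the donor as a block. Of the 28 target genes tested, CCL5 had an unadjusted p under 0.05 with the TLR3 and the STING agonist, at 5.34 ± 1.67 and 6.28 ± 1.74. CCL20 did with the STING agonist, in the other direction, at -2.37 ± 0.95.

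**Figure D5:**
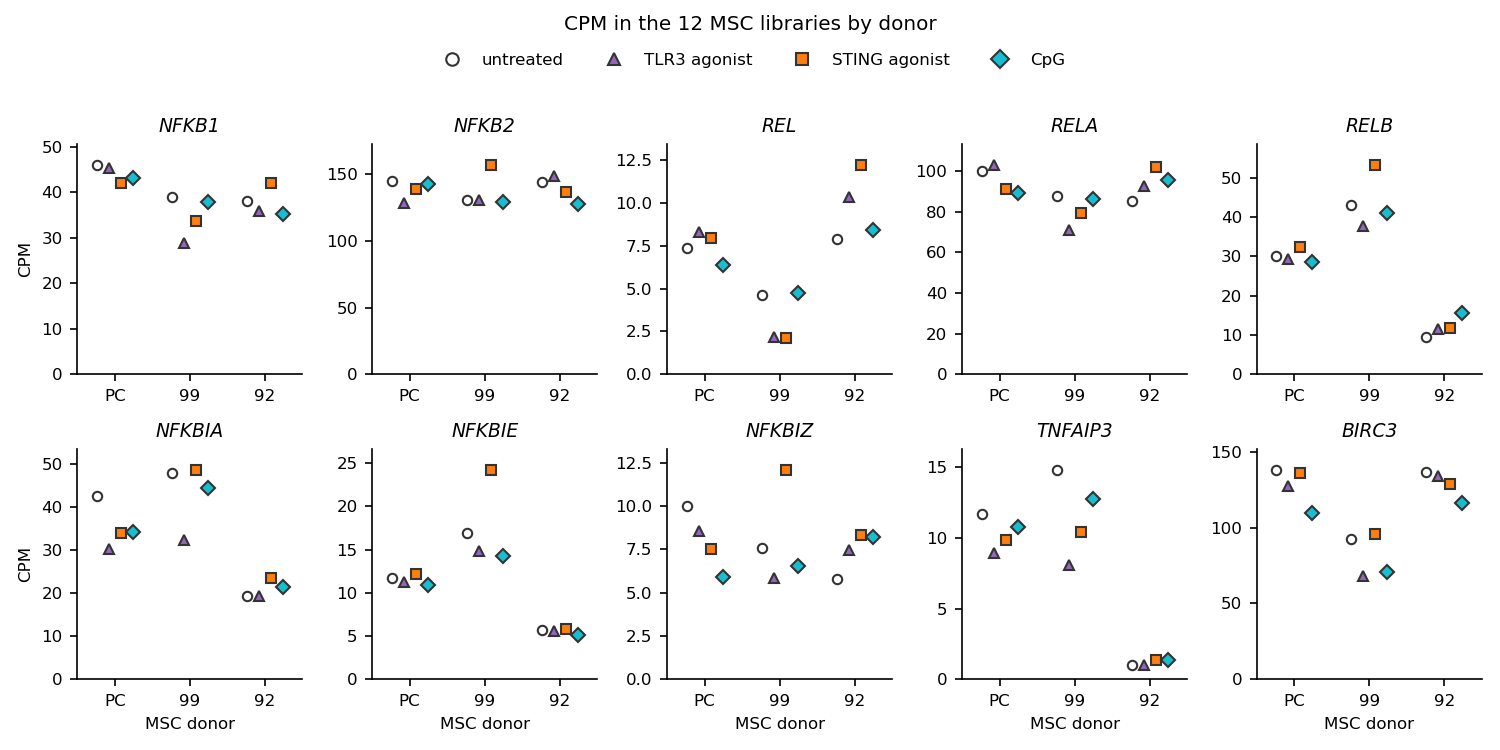
Level of each gene in the 12 MSC libraries, in CPM on linear axes from 0, by donor and treatment (symbols); each point is 1 library. The 4 libraries of donor 92 lie below the 8 others for RELB, NFKBIA, NFKBIE and TNFAIP3 (TNFAIP3 at 0.973 to 1.35 against 8.09 to 14.8 CPM), and donor 99 is lowest for REL and BIRC3.

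Several members were set apart by MSC donor. For donor 92 all 4 libraries were below the 8 of the other donors for 4 members, where 11.1% of 15099 genes were. These were TNFAIP3, at 0.973 to 1.35 CPM against 8.09 to 14.8 CPM, RELB at 9.38 to 15.5 against 28.5 to 53.2 CPM, NFKBIE at 5.12 to 5.81 against 10.9 to 24.2 CPM, and NFKBIA at 19.2 to 23.5 against 30.2 to 48.5 CPM. The means differed 9.39-fold for TNFAIP3 and 1.88-fold for NFKBIA. For donor 99, RELB and NFKBIE were above all others (4.84% of genes), and REL, at 2.10 to 4.73 against 6.37 to 12.2 CPM, and BIRC3, at 68.3 to 96.0 against 109.9 to 138 CPM, were below (6.78%).

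NFKB2 and NFKBIZ overlapped between all 3 donors, whereas NFKB1, at 28.8 to 38.97 against 42.05 to 45.95 CPM, and RELA, at 71.1 to 87.6 against 89.4 to 102.8 CPM, were lower in donor 99 than in donor PC, with donor 92 overlapping both. Of the target genes in donor 92, 8 of 28 were below and 5 above all other libraries, with SAA1 at 3.33 to 7.70 against 39.4 to 138 CPM and PTGS2, the inducible cyclooxygenase, at 10.2 to 14.4 against 0.273 to 2.62 CPM. Without donor 92, 0 members passed with either agonist.

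Set side by side without a test, since the MSC and joint cell tables are separate, NFKBIZ in MSC lay at 5.77 to 12.1 CPM and in unstimulated synoviocytes and chondrocytes at 12.2 and 12.3 CPM. TNFAIP3 in MSC, at 0.973 to 14.8 CPM, overlapped only the synoviocyte range of 12.5 to 23.3 CPM. RELA was at 71.1 to 102.8 CPM in MSC, within or next to its range in every joint cell type.

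The genes whose pattern was most like that of a member were sought over the 33 joint cell libraries, by Pearson correlation of log2(CPM + 1) after each cell type was centred on its own mean, among 12461 genes with a mean of at least 1 CPM. Nearest to NFKB1 was CCL20, a chemokine gene (r = 0.98), nearest to NFKBIZ were SLC7A2, a cationic amino acid transporter, and ADRA2A and CXCL1 (r = 0.97, 0.95 and 0.95), and nearest to TNFAIP3 were CCL20 and NFKB1 (r = 0.92 and 0.91). BIRC3 was nearest to NECTIN2 (r = 0.94), NFKB2 to GCH1 (r = 0.93), NFKBIA to SLC51B (r = 0.90) and RELB to CTDSP1, RELA to LRBA, NFKBIE to ANXA11 and REL to TP53BP2 (r = 0.87 each). These libraries share media donors, horses and the ORC cultures, and the values describe them without a test. Without the 3 ORC cultures, SLC7A2 was still nearest to NFKBIZ (r = 0.97), CCL20 was at r = 0.93 with NFKB1 but r = 0.71 with TNFAIP3, and ANXA11 was at r = 0.54 with NFKBIE. For the other 9 members another gene was then nearest. The libraries without addition were kept in both sets. For NFKBIZ the highest level was 10.74-fold the lowest over all chondrocyte libraries, and 2.475-fold over the 9 with medium. In synoviocytes these ranges were 4.67-fold and 1.838-fold. Correlations without the libraries that had no addition are not given.

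Between members, correlations of the same kind within a cell type were positive for 45 of 45 pairs over the 11 chondrocyte libraries (median r 0.90; 39 pairs and 0.58 over the 8 without ORC medium), for 35 over the 11 synoviocyte libraries (0.45), for 40 over the 11 macrophage libraries (0.39) and for 26 over the 12 MSC libraries (0.08). The joint cell sets, that of 8 included, hold the libraries with cytokines only and without addition.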

How the data were processed

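RNA from 45 libraries was sequenced in bulk. Per the labels and the study's methods, the authors trimmed reads with Cutadapt 1.12, aligned them with STAR to EquCab3.0, counted them with HTSeq 0.11.0 on Ensembl genes and kept protein coding genes. The deposited values are raw counts, of which 41 very large values are rounded. Strand settings are not given in the sources used here. Libraries held 23525704 to 54103873 counts.

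CPM are counts per 1000000 of the library total. Tests were edgeR 4.0.16 quasi-likelihood fits (R 4.3.3, TMM, genes with at least 10 counts over the fitted libraries, Benjamini-Hochberg over all genes tested, two-sided) on the 9 libraries of a cell type, on 12 MSC libraries for CpG, and on 27 joint cell libraries for cell types and interactions. Fits were also run on simulated counts with large changes and no donor effect, which does not cover small changes or libraries that share a donor. Single libraries were compared as ratios with exact conditional binomial 95% intervals, and medians of log2 ratios over lists with 0.5 counts added.

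All 10 members are named in every comparison. Of the other lists, counts and medians are given, and the genes named are examples among those past the threshold or, where none passed, among the 4 of smallest p. Target genes named for cytokines, media and MSC donors were chosen after their values were seen. The members and lists were chosen with earlier results of these data known.

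Alternatives were DESeq2 1.42.0, RLE scaling, other filters, other sets of libraries, the donor as a block and leaving out each library. Libraries were paired by the MSC donor in the labels, since replicate numbers follow accession order only. The median correlation of the deviations of same-donor libraries was 0.83 in MSC, 0.68 in chondrocytes, 0.44 in macrophages (every pair over 0.1) and 0.07 in synoviocytes (2 of 9 pairs over 0.1).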

Additional observations from a re-analysis of the deposited data

Results flagged for a closer look

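NFKBIE moved in opposite directions with STING-MSC-CM in 2 cell types, in every pair of libraries with medium of the same donor. Its mean log2 change from resting to STING-MSC-CM was 0.33 in synoviocytes (0.135 to 0.713 over 3 donors) and -0.13 in macrophages (-0.226 to -0.034), a difference of 0.458. In the interaction test over the 3 joint cell types NFKBIE had a p of 0.42 and an adjusted p of 1 (edgeR), so that the difference did not pass. NFKBIE was flagged from these same values, and the share of all genes with such opposite directions is not given. In synoviocytes, libraries with medium of the same donor hardly deviated together (median correlation 0.07), so that pairing by donor adds little there.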

How the results depend on the processing

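Of the 24 called differences of members between cell types, 0 changed sign in any alternative. Calls were lost in 4 of 159 refits with another setting and in 20 of 144 refits that left out 1 library. In chondrocytes against synoviocytes, the 6 called members became 2 to 8 when 1 library was left out and 10 without the ORC-medium chondrocyte cultures, an alternative added after seeing the data. In macrophages against synoviocytes the count of 9 held in all alternatives, and against chondrocytes it ran from 7 to 9. RELA, not called between macrophages and synoviocytes, ran from -0.041 to 0.11 when 1 library was left out. Of the 136 differences not called, sign changed in 35 of 881 refits with another setting, at log2 sizes of at most 0.27, and in 209 of 816 that left out 1 library, and none of these was called. A call was gained in 8 and 2 of these refits.

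With the donor as a replicate block, 1 member, REL, was called in macrophages between STING- and TLR-MSC-CM. The block changed the count of members called in no other comparison of media or agonists, and gave 7 in chondrocytes against synoviocytes. Over all genes in macrophages, the block called 336 for STING- against TLR-MSC-CM and 80 for STING-MSC-CM against resting medium. It called 2 each for the STING agonist in MSC and STING-MSC-CM in chondrocytes. The reported fit called 0 in each of these comparisons. DESeq2 called 48, 93 and 1 genes for the TLR3 agonist, the STING agonist and their comparison in MSC, 2 for TLR-MSC-CM in synoviocytes, and 9 and 31 for STING-MSC-CM against resting and TLR-MSC-CM in macrophages. Without donor 92, edgeR called 25 and 40 genes for the 2 agonists, and 51 for the TLR3 agonist without its library of donor 92.

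For the cytokines against no addition, members past a fold of 1.5 instead of 2 numbered 5 in synoviocytes and 7 in chondrocytes, and with TMM-scaled totals 2 passed 2-fold in chondrocytes. Other settings kept the reported counts. Depth did not limit the members, of which the lowest had 0.973 CPM. Groups hold 3 libraries, and each joint cell type 1 horse.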
